A study of Rattus norvegicus with 6 samples.

Results

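Chemokines are small secreted proteins that draw leukocytes along a gradient, and chemokine receptors are the G protein-coupled proteins on the target cells that read it. The genes described here are those whose symbol begins with Ccl, Cxcl, Cx3cl or Xcl (ligands) or with Ccr, Cxcr, Cx3cr, Xcr or Ackr (receptors) followed by a number. The rule found 55 of the 22250 genes measured, 34 ligands and 21 receptors. Of these, 41 had enough reads to be tested, 26 ligands and 15 receptors, and 14 did not. The rule itself uses the symbols alone.

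In a grafted heart, injured tissue and the leukocytes entering it release inflammatory chemokines. Cxcl1, Cxcl2 and their relatives act on Cxcr2 of neutrophils, Ccl2 and Ccl7 draw monocytes from the blood, and interferon-induced Cxcl9, Cxcl10 and Cxcl11 draw activated T cells through Cxcr3. Homeostatic chemokines such as Cxcl12 and Ccl21 are made in resting tissue, and the atypical receptors (Ackr) bind chemokines without classical G protein signalling and remove them.

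RNA was sequenced from left ventricular myocardium of Sprague-Dawley rat hearts of wild-type (WT) genotype on postoperative day 1 after heterotopic heart transplantation. There were 3 young donor hearts (numbers 3, 13 and 15, donor age 10 weeks) and 3 aged donor hearts (numbers 3, 4 and 7, donor age 1 year), numbered within each group, so that young 3 and aged 3 are different hearts. Donors were male, all hearts were kept in cold preservation solution, and the recipients were young syngeneic rats that received no immunosuppressant, so leukocytes of the recipient could be present in either group. A heterotopic graft is perfused but does not carry the load of the circulation. The comparison asks how the chemokine system differed with donor age. Each heart is bulk tissue, in which fewer cells of a type and less RNA per cell cannot be told apart.

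The reads counted on genes numbered 21457509 to 24560869 per heart, and 3 reads corresponded to 0.0985 to 0.191 CPM (read counts scaled to a common library size with edgeR's trimmed mean of M values). Young 15 stood apart from the other young hearts: its level was above both of them for 24 of the 41 tested members (46.1% of all genes tested), and for 15 it was also below all aged hearts (18.0% of all genes tested). The labelled tissue was checked with 9 cardiomyocyte genes, whose summed level was 74600, 83600 and 10800 CPM in young 3, 13 and 15 and 131, 6020 and 4280 CPM in aged 3, 4 and 7. Cardiomyocyte RNA was thus nearly absent from the library labelled aged 3, where Myh6, the main heavy chain of rat cardiac myosin, was at 13.6 CPM against 26900 in young 3. Aged 3 was also the highest of the 6 hearts for 20 of the 41 members (24.6% of all genes tested). The part of these 2 hearts' composition in the results was not tested, and values without young 15 are given beside the results that rest on it.

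More chemokine and receptor genes were higher than lower in aged donor hearts. A gene is called past the limits here when the fold change was above 1.5 or below 0.67 with an unadjusted p under 0.05 in edgeR's quasi-likelihood test. By this rule 13 of the 41 tested members were higher in aged donor hearts (31.7%, against 13.2% of all genes tested) and 5 were lower (12.2%, against 19.0%). The median log2 fold change was 1.83 for ligands and 0.92 for receptors, against 0.016 for all genes tested. Among ligands 10 were higher, 3 lower and 13 within the limits, and among receptors 3 were higher, 2 lower and 10 within. All 3 aged hearts were above all 3 young hearts for 16 members (39.0%, against 21.0% of all genes tested) and below them for 5 (12.2%, against 20.6%).

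After Benjamini-Hochberg adjustment over all 13784 genes tested, 0 members had an adjusted p under 0.05 in edgeR's test (0.0% of all genes tested), against 18 with an unadjusted p under 0.05 (34.3% of all genes). Among members past the limits the edgeR adjusted p ran from 0.0916 to 0.138. DESeq2 gave 18 members an adjusted p under 0.05 (26.1% of all genes) and gave no adjusted p for 1 member, and limma-voom with quality weights gave 29 (61.1%). By the fold and unadjusted p limits, DESeq2 put 20 members higher (15.6% of all genes) and 6 lower (21.2%), and limma-voom put 21 higher (26.8%) and 8 lower (27.7%). Without young 15, edgeR put 21 members higher (51.2%, against 27.1% of all genes tested) and 7 lower (17.1%, against 24.0%), and 25 had an adjusted p under 0.05 (48.4% of all genes). Without both young 15 and aged 3, 24 members were higher (27.0% of all genes) and 8 lower (25.6%). With 3 hearts against 3, an exact permutation test of a single gene cannot give a p below 0.1.

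Past the limits with all hearts and in each of the 6 fits that left out 1 heart were 10 members. Those higher in aged hearts were Cxcl2, Cxcl3, Ccl3, Ccl6, Cxcl13, Cxcl16 and Cxcr2 (7 members, with 4.86% of all genes higher by the same rule). Those lower were Cxcl9, Xcl1 and Ackr4 (3 members, with 10.0% of all genes lower). All of these but Xcl1 were also past the limits under the other normalizations and tools, without a filter on low counts, and without both young 15 and aged 3 (9 members, with 13.4% of all genes).

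**Figure D1:**
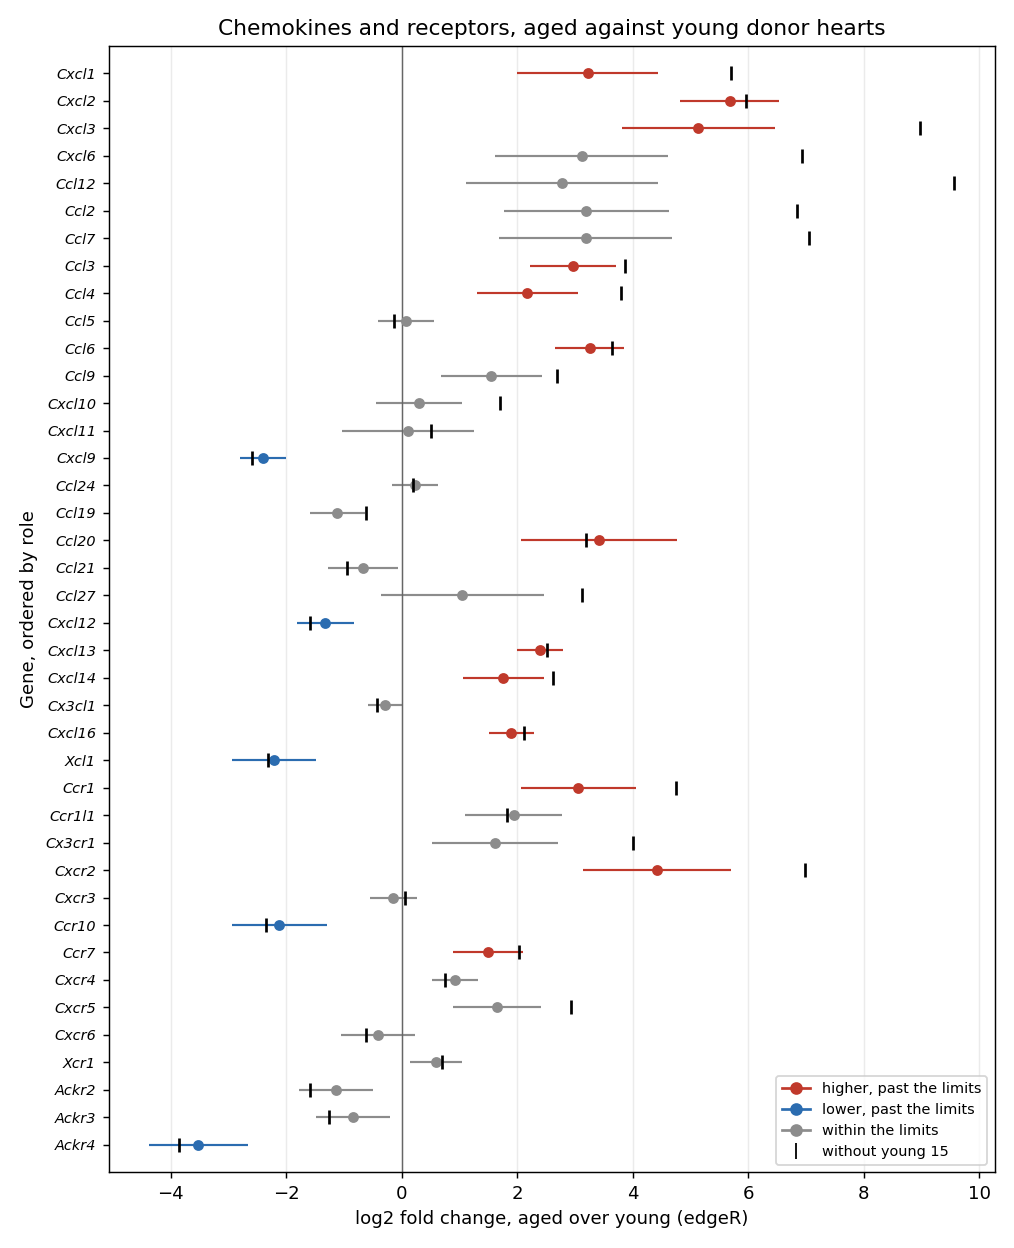
Log2 fold change of 40 tested members in aged over young donor hearts (points, edgeR, all 6 hearts) with 1 SE (bars), ordered by role, with the estimate without young 15 as a black tick. Of these, 13 are past the limits and higher (red) and 5 are past the limits and lower (blue), and the ticks for Ccl2, Ccl7 and Ccl12 lie far to the right of their points.

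The neutrophil-attracting CXC ligands Cxcl1, Cxcl2, Cxcl3 and Cxcl6 were low or nearly silent in young 3 and 13 and measured in all aged hearts. Of these 4 genes, 3 were past the limits and higher in aged hearts (13.2% of all genes). They lie in a cluster of 131.0 kb at chr14:18731378-18862407 (Rnor_6.0, the build in the submitters' processing notes), with Pf4 and Ppbp between Cxcl3 and Cxcl6. The promoters of Cxcl1, Cxcl2 and Cxcl6 are shown as those of these 4 ligands for which a sequence was matched. The windows below come from the RefSeq promoter sequences (build GRCr8, 250 bases before to 50 bases after each start, 5′ to 3′ in the direction of the gene), with a match to the NF-kappa-B (kB) consensus in capitals, and the Cxcl10 promoter is added for comparison. In Cxcl1 and Cxcl6 the match on the other strand overlaps the printed one by all but 1 base, and in Cxcl2 it covers the same bases. Matches not printed begin 74 bases before the start in Cxcl2 and, in Cxcl10, 128 and 127 bases before it on the 2 strands.
Cxcl1: cctgtgctccGGGAATTTCCctggcctgga
Cxcl2: ctaagctcagGGGATTTCCCtgatccctgg
Cxcl6: tccaaggcccGGGAATTTCCccagcatctt
Cxcl10: gcaggaaagaGGGAAATTCCaagctcatgg

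The windows lie at chr14:17479386-17479415 (minus strand, Cxcl1), chr14:17467309-17467338 (minus strand, Cxcl2), chr14:17596486-17596515 (minus strand, Cxcl6) and chr14:15988869-15988898 (plus strand, Cxcl10) of GRCr8, and the capitals begin 84, 73, 88 and 187 bases before the gene's start. A promoter sequence was matched for 42 of the 55 members. The kB consensus, searched on both strands, was in 9 of these 42 (21.4%) and in 2087 of the 27457 promoters of the whole table (7.6%). Of members with a promoter, it was in 3 of the 9 that were past the limits and higher (Cxcl1, Cxcl2 and Ccl20) and in 0 of the 4 that were lower. The other members with a match were Ccl7, Ccl9, Cxcl6, Cxcl10 and Cxcl11, within the limits with all hearts, and Ccr3, not tested. The sequence TGANTCA, the AP-1 site with any central base, searched in the same way, was in 7 of the 42 (16.7%, against 7.33% of all promoters), in 1 of the 9 that were past the limits and higher (11.1%) and in 0 of the 4 that were lower. It was also in Ccl7, Cxcl10, Cxcl11, Cxcr6 and Xcr1, within the limits with all hearts, and in Ccr3, not tested. A match describes letters in these windows and is no measurement of binding.

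Cxcl2 was at 0.121, 0.318 and 0.33 CPM in young 3, 13 and 15 and at 20.6, 3.34 and 17.0 CPM in aged 3, 4 and 7. The groups did not overlap, aged 4 was the lowest aged heart, and young 15 was close to the other young hearts. The log2 fold change was 5.68 (SE 0.853, edgeR adjusted p = 0.0916), which is 51.3-fold, and 5.97 without young 15.

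Cxcl3 had 0, 1 and 32 reads in young 3, 13 and 15 and 645, 140 and 717 reads in aged 3, 4 and 7, or 1.32 CPM in young 15 and 5.31 to 27.5 CPM in aged hearts. That is a log2 fold change of 5.14 (SE 1.32, edgeR adjusted p = 0.0916). It was 8.98 without young 15, a value that depends on the prior count since 1 read is then left in the young hearts. Again every aged heart lay above every young heart, with aged 4 lowest of the aged hearts and young 15 highest of the young hearts.

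Cxcl1 followed at 0.423, 1.14 and 11.2 CPM in young 3, 13 and 15 and 64.1, 13.9 and 42.6 CPM in aged 3, 4 and 7, a narrow gap between young 15 and aged 4. The log2 fold change was 3.22 (SE 1.22, edgeR adjusted p = 0.126). It was no longer past the limits without young 3, young 13, aged 3 or aged 7, with log2 fold changes of 2.69, 2.78, 2.71 and 3.18, and without young 15 it was 5.71. Cxcl6, the remaining neutrophil-attracting CXC ligand, was at 0.181, 0 and 3.68 CPM in young hearts and 17.1, 2.09 and 15.8 CPM in aged hearts, so that young 15 exceeded aged 4. It was not past the limits with all hearts (log2 fold change 3.12, SE 1.5, edgeR adjusted p = 0.184) and was past them without young 15 (6.93, with 3 reads left in the young hearts).

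The monocyte-attracting ligands Ccl2, Ccl7 and Ccl12 separated young 3 and 13 from young 15 as well as from the aged hearts, and Ccl2 and Ccl7 held the largest shares of ligand RNA in each aged heart. They lie within 125.9 kb at chr10:69412017-69537882 with Ccl11 and Ccl1, which were not tested. With all hearts 0 of the 3 tested were past the limits (13.2% of all genes were higher and 19.0% lower). Ccl2 was at 2.66, 3.12 and 99.6 CPM in young 3, 13 and 15 and at 381, 252 and 337 CPM in aged 3, 4 and 7. The groups did not overlap, and young 15 lay between the other young hearts and the aged hearts. For Ccl2 the log2 fold change was 3.20 (SE 1.43, edgeR adjusted p = 0.164) with all hearts and 6.84 without young 15 (edgeR adjusted p = 0.00106).

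Ccl7, which acts on the same monocyte receptors as Ccl2, was at 1.15, 1.78 and 59.1 CPM in young hearts and 259, 100 and 211 CPM in aged hearts. Its log2 fold change was 3.19 (SE 1.5, edgeR adjusted p = 0.177) with all hearts and 7.05 without young 15. Ccl12, a further monocyte attractant of rodents, had 11.6 CPM in young 15, 0.0605 and 0 CPM in young 3 and 13, and 37.0, 25.6 and 19.0 CPM in aged 3, 4 and 7. All 3 genes therefore had the same order, with young 3 and 13 lowest, young 15 between, and the aged hearts on top. The ratio of Ccl2 to Ccl7 in FPKM (read counts divided by gene length and library total) moved far less than either gene, at 2.36, 1.78 and 1.71 in young 3, 13 and 15 and 1.5, 2.56 and 1.63 in aged 3, 4 and 7.

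The other inflammatory CC ligands act on monocytes, macrophages, T cells and, through Ccr1, rodent neutrophils. Of these, 3 of 5 were past the limits and higher in aged hearts (13.2% of all genes). These 5 genes (Ccl5, Ccl9, Ccl6, Ccl3 and Ccl4) form a cluster of 146.6 kb at chr10:70739800-70886355. Ccl6, a myeloid chemokine of rodents, was the most abundant of them in aged hearts by FPKM, and was at 17.9, 14.8 and 29.6 CPM in young 3, 13 and 15 and 314, 71.0 and 215 CPM in aged 3, 4 and 7. Its groups were well apart, with a log2 fold change of 3.26 (SE 0.6, edgeR adjusted p = 0.0916), or 9.61-fold, and a range of 2.78 to 3.67 over the fits without 1 heart.

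Ccl3 (macrophage inflammatory protein 1 alpha) was far scarcer, at 0.121, 0 and 0.207 CPM in young hearts and 1.08, 0.872 and 0.92 CPM in aged hearts, and its log2 fold change was 2.97 (SE 0.741, edgeR adjusted p = 0.0916), or 3.87 without young 15. Ccl4, its close relative, was at 0.726, 0.191 and 3.18 CPM in young hearts and 7.65, 6.98 and 4.45 CPM in aged hearts (log2 fold change 2.18, SE 0.877, edgeR adjusted p = 0.138). For Ccl4 the groups did not overlap, yet the gene was past the limits in only 1 of the 6 fits without 1 heart, the one without young 15 (3.80), and the other 5 fits gave log2 fold changes of 1.68 to 2.38. Ccl5, made mainly by T and NK cells and platelets, showed no such pattern, at 8.53, 5.98 and 4.01 CPM in young hearts and 10.8, 4.55 and 4.14 CPM in aged hearts (log2 fold change 0.08, SE 0.484). Ccl9 was near 1 CPM in all aged hearts (0.986 to 1.02 CPM) and at 0.302, 0 and 0.661 CPM in young hearts, and was not past the limits with all hearts (log2 fold change 1.55, edgeR adjusted p = 0.236) but was past them without young 15 (2.69).

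The interferon-induced Cxcr3 ligands did not move as a group, although they lie within 39.7 kb of each other at chr14:17195014-17234712. Cxcl9, the member most dependent on interferon gamma, was at 9.56, 11.4 and 5.99 CPM in young 3, 13 and 15 and at 2.43, 1.33 and 1.34 CPM in aged 3, 4 and 7. Every aged heart was below every young heart, and the log2 fold change was -2.40 (SE 0.403, edgeR adjusted p = 0.0916), or 0.19-fold, with a range of -2.75 to -2.19 over the fits without 1 heart.

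Cxcl10 was at 1.15, 1.14 and 6.57 CPM in young 3, 13 and 15 and 3.71, 4.63 and 2.68 CPM in aged hearts, with young 15 the highest heart of all. This is a log2 fold change of 0.30 (SE 0.74) with all hearts and 1.70 without young 15, when it was past the limits. Cxcl11 ran from 5.93 to 20.5 CPM in young hearts and from 0.493 CPM in aged 3 to 25.9 CPM in aged 7, with a log2 fold change of 0.11 (SE 1.14). As a result the FPKM ratio of Cxcl9 to Cxcl10 was 6.29 and 7.57 in young 3 and 13, 0.69 in young 15, and 0.495, 0.217 and 0.378 in aged 3, 4 and 7. Cxcl10 and Cxcl11 overlap Art3, a gene of the opposite strand that was at 407, 333 and 94.6 CPM in young hearts and 4.2, 90.8 and 86.1 CPM in aged hearts, and since the use of strand in counting is not stated their reads may be shared. The common receptor Cxcr3 stayed between 0.843 and 1.86 CPM in the 6 hearts.

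Among homeostatic and barrier ligands, 3 of the 7 tested were past the limits and higher in aged hearts (13.2% of all genes) and 1 was lower (19.0% of all genes). The ligand with the largest share of ligand FPKM in young 3 and 13 was Cxcl12, which retains and recruits Cxcr4-bearing cells and is made by endothelial and stromal cells, and which was at 309, 347 and 139 CPM in young 3, 13 and 15 and 163, 98.5 and 57.8 CPM in aged 3, 4 and 7. Aged 3 lay above young 15, so the groups overlapped. With all hearts the log2 fold change was -1.32 (SE 0.497, edgeR adjusted p = 0.126), and it was not past the limits without young 3, young 13, aged 4 or aged 7, with values of -1.19, -1.07, -1.26 and -1.02.

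Cxcl13, which draws B cells and follicular T cells through Cxcr5 in lymphoid tissue, went the other way, at 5.32, 2.16 and 4.5 CPM in young hearts and 16.6, 19.6 and 26.9 CPM in aged hearts. The groups were clearly apart, with a log2 fold change of 2.39 (SE 0.398, edgeR adjusted p = 0.0916), or 5.25-fold. Cxcl13 and Ccl20 were the members past the limits and higher for which young 15 was not above both other young hearts. Its receptor Cxcr5 was at 0.121, 0.445 and 1.4 CPM in young hearts and 2.59, 2.16 and 1.69 CPM in aged hearts, without overlap but not past the limits with all hearts (log2 fold change 1.65, SE 0.759) and past them without young 15 (2.94). The 4 B cell markers, whose summed level was 0.986 to 6.9 CPM in the 6 hearts, had 0 of 3 tested members past the limits (13.2% of all genes higher and 19.0% lower).

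Ccl20, the ligand of Ccr6, was called higher on the strength of aged 7: it was at 0.605, 0.318 and 0.248 CPM in young hearts and 0.197, 1.82 and 10.5 CPM in aged 3, 4 and 7, with aged 3 below all young hearts. Its log2 fold change was 3.42 (SE 1.35, edgeR adjusted p = 0.134) with all hearts and 1.37 without aged 7, and it was past the limits in only 1 of the 6 fits without 1 heart. Cxcl14, a chemokine of epithelium and stroma, was at 0.665, 0.445 and 1.86 CPM in young hearts and 3.35, 5.42 and 1.49 CPM in aged hearts, with aged 7 below young 15. With all hearts the log2 fold change was 1.76 (SE 0.701, edgeR adjusted p = 0.137), and it was not past the limits without young 3, young 13, aged 3 or aged 4 (1.54, 1.42, 1.77 and 1.26), while it was 2.63 without young 15.

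The Ccr7 ligands Ccl19 and Ccl21, which guide dendritic cells and T cells into lymphatics and lymph nodes, were not past the limits. Ccl21 was at 40.7, 40.0 and 18.0 CPM in young hearts and 12.7, 39.5 and 9.89 CPM in aged hearts, with aged 4 at the level of young 3 and 13. Ccl19 was at 1.39, 1.02 and 2.56 CPM in young hearts and 0.525, 0.91 and 0.881 CPM in aged hearts, where all aged hearts were lower (log2 fold change -1.11, SE 0.481, edgeR adjusted p = 0.157). Ccl27, a skin chemokine, was at 1.33, 0.572 and 9.79 CPM in young hearts and 0.296, 14.5 and 9.85 CPM in aged hearts, without a difference beyond the spread, and it overlaps Il11ra1 on the opposite strand.

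The membrane-bound ligands differed from each other. Cxcl16, which is anchored on macrophages and endothelium, binds Cxcr6 and also takes up oxidised lipid, was at 26.3, 16.8 and 30.8 CPM in young hearts and 134, 56.4 and 84.6 CPM in aged hearts. The groups did not overlap, the young hearts were alike, and the log2 fold change was 1.90 (SE 0.388, edgeR adjusted p = 0.0916), or 3.72-fold. Cxcl16 overlaps Zmynd15 on the opposite strand, which was at 1.63, 1.14 and 2.93 CPM in young hearts and 9.16, 7.96 and 10.2 CPM in aged hearts, so reads may be shared. Its receptor Cxcr6 was between 0.268 and 1.51 CPM in the 6 hearts and was not past the limits (log2 fold change -0.41, and -0.72 to 0.20 with 1 heart left out). It overlaps Fyco1 on the opposite strand, at 413, 483 and 142 CPM in young hearts and 62.7, 92.0 and 104 CPM in aged hearts, so the low value of Cxcr6 is uncertain.

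Cx3cl1 (fractalkine), the other membrane-bound ligand, was alike in both groups at 36.7, 41.9 and 25.6 CPM in young hearts and 31.4, 18.7 and 35.8 CPM in aged hearts (log2 fold change -0.28, SE 0.307). Xcl1 (lymphotactin), which NK cells and T cells make and which acts on Xcr1 of cross-presenting dendritic cells, was scarce and lower in aged hearts, at 1.57, 1.59 and 1.2 CPM against 0.427, 0.455 and 0.0383 CPM. The groups did not overlap, and the log2 fold change was -2.21 (SE 0.729, edgeR adjusted p = 0.104). Xcr1 was between 0.363 and 1.15 CPM and was not past the limits (log2 fold change 0.60). Ccl24, an eosinophil attractant, was at 2.17 to 5.48 CPM in the 6 hearts (log2 fold change 0.23, SE 0.397).

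**Figure D2:**
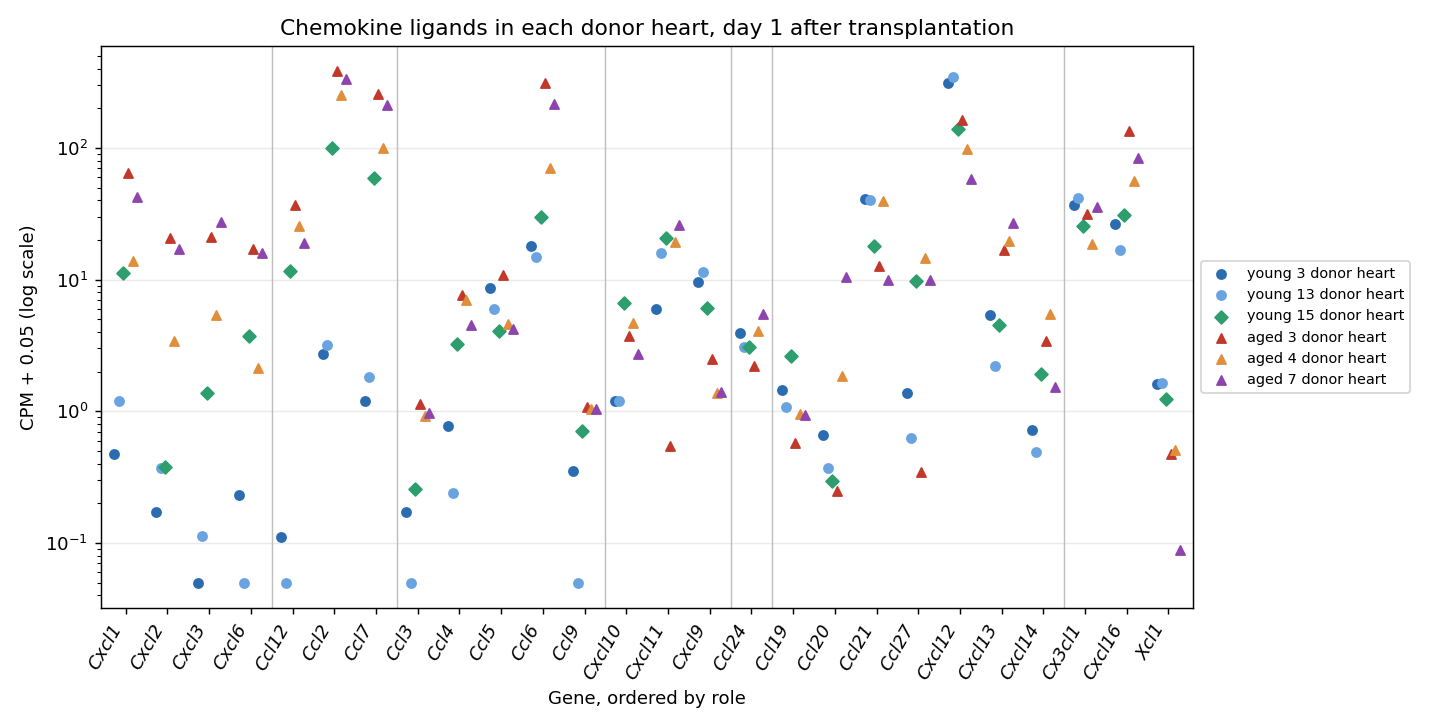
CPM plus 0.05 of the 26 tested ligands on a log axis, 1 point per donor heart (circles for young 3 and 13, diamonds for young 15, triangles for aged hearts), with vertical lines between roles. For Ccl2, Ccl7 and Ccl12 the diamond lies between the circles and the triangles, whereas for Cxcl2, Cxcl13 and Cxcl16 it lies with the circles.

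Of 6 tested receptors of inflammatory ligands, 2 were past the limits and higher in aged hearts, Cxcr2 and Ccr1 (13.2% of all genes). The number lower was 0 (19.0% of all genes). Cxcr2, the neutrophil receptor of the CXC ligands shown above, was at 0.484, 0.445 and 7.02 CPM in young 3, 13 and 15 and 110, 17.4 and 48.1 CPM in aged 3, 4 and 7. As for Cxcl1, aged 3 was highest, followed by aged 7, aged 4 and young 15, and the groups did not overlap. Its log2 fold change was 4.42 (SE 1.28, edgeR adjusted p = 0.0927), or 21.4-fold, and 6.99 without young 15. Its neighbour Cxcr1 had 0 reads in all 6 hearts.

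Ccr1, carried by monocytes and rodent neutrophils, was at 4.23, 1.59 and 21.8 CPM in young hearts and 129, 39.1 and 64.4 CPM in aged hearts, again without overlap. This gave a log2 fold change of 3.06 (SE 1.0, edgeR adjusted p = 0.103) with all hearts and 4.76 without young 15, and the gene was not past the limits without young 3 (2.72) or aged 3 (2.48). The fractalkine receptor Cx3cr1, a marker of patrolling monocytes and some macrophages, was at 1.21, 2.1 and 22.0 CPM in young hearts and 34.6, 32.0 and 12.0 CPM in aged hearts, so that young 15 exceeded aged 7, and the log2 fold change was 1.62 (SE 1.09) with all hearts and 4.01 without young 15. Ccr1l1 was at 0.127 to 3.02 CPM with overlapping groups.

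The receptors of homeostatic and lymphocyte ligands had 1 higher and 1 lower member among 6 tested (13.2% and 19.0% of all genes). Ccr7, which takes mature dendritic cells and naive T cells to lymph nodes, was at 1.15, 1.02 and 2.4 CPM in young hearts and 4.4, 6.9 and 1.76 CPM in aged hearts, with aged 7 below young 15. Its log2 fold change was 1.5 (SE 0.604, edgeR adjusted p = 0.138), and it was not past the limits without young 3, young 13, aged 3 or aged 4 (1.34, 1.28, 1.49 and 1.01). Ccr10, the receptor of Ccl27, was at 2.9, 2.92 and 1.57 CPM in young hearts and 0.0657, 0.986 and 0.651 CPM in aged hearts, without overlap. In edgeR the log2 fold change was -2.12 (SE 0.824, edgeR adjusted p = 0.131), and it was not past the limits without young 3, young 13 or aged 7 (-1.98, -1.97 and -2.23). Cxcr4, the receptor of Cxcl12, was at 22.7, 36.7 and 18.3 CPM in young hearts and 73.0, 32.4 and 41.3 CPM in aged hearts. With aged 4 below young 13 the groups overlapped, and the log2 fold change of 0.92 (SE 0.395, edgeR adjusted p = 0.155) was past the limits only without young 13 (1.25) or without aged 4 (1.14) among the fits that left out 1 heart.

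Of the atypical scavenging receptors, Ackr4 was lower in aged hearts and the other two were not past the limits with all hearts. Ackr4, which takes up Ccl19, Ccl21 and Ccl25, was at 19.6, 10.1 and 5.0 CPM in young hearts and 0.854, 1.93 and 0.23 CPM in aged hearts. Every aged heart was below every young heart, and the log2 fold change was -3.52 (SE 0.853, edgeR adjusted p = 0.0916), or 0.0874-fold. Acad11, which overlaps Ackr4 on the opposite strand, had overlapping groups between 12.2 and 18.2 CPM. Ackr3, the scavenger of Cxcl12, was at 110, 101 and 22.1 CPM in young hearts and 62.4, 23.0 and 45.1 CPM in aged hearts, with young 15 the lowest heart of all. Its log2 fold change was -0.84 (SE 0.64) with all hearts and -1.25 without young 15. Ackr2, which degrades inflammatory CC ligands, was at 5.32, 5.28 and 0.991 CPM in young hearts and 1.94, 1.97 and 1.3 CPM in aged hearts, with a log2 fold change of -1.14 (SE 0.641) with all hearts and -1.58 without young 15. Both Ackr2 and Ackr3 were past the limits without young 15.

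**Figure D3:**
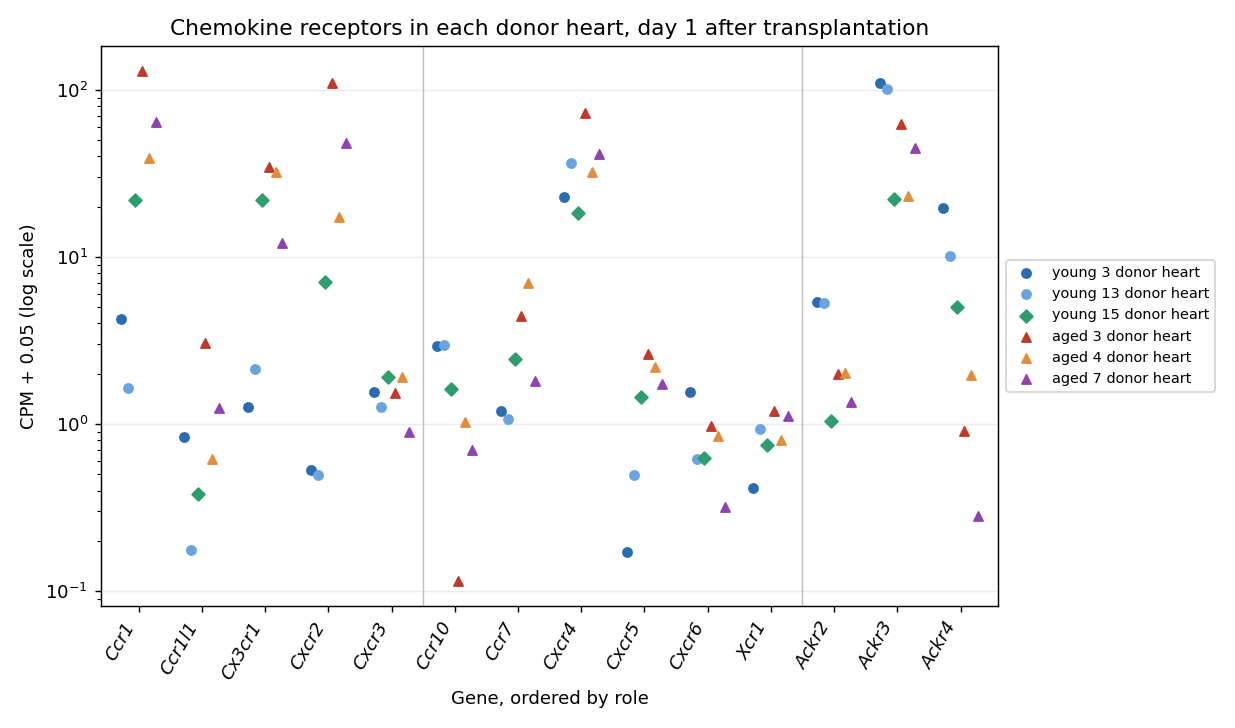
CPM plus 0.05 of 14 tested receptors on a log axis, 1 point per donor heart (circles for young 3 and 13, diamonds for young 15, triangles for aged hearts), ordered by role. Cxcr2 and Ccr1 show all triangles above the other symbols, Ackr4 and Ccr10 show all triangles below them, and for Ackr3 the diamond is the lowest symbol.

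The make-up of the chemokine pool differed more between young 3 or 13 and the other 4 hearts than within those 4. On the FPKM scale, which allows levels of different genes to be compared, the 34 ligands together were at 153, 143 and 412 FPKM in young 3, 13 and 15 and 1680, 821 and 1280 FPKM in aged 3, 4 and 7. Homeostatic and barrier ligands made up 58.6% and 59.9% of it in young 3 and 13, 17.9% in young 15 and 4.7%, 14.8% and 6.7% in aged 3, 4 and 7. The monocyte-attracting ligands made up 2.33% and 2.97% in young 3 and 13, 54.4% in young 15 and 60.3%, 63.0% and 61.7% in the aged hearts. The homeostatic and barrier ligands summed to 89.7, 85.8 and 73.9 FPKM in young hearts and 78.8, 121 and 85.6 FPKM in aged hearts. Their summed FPKM thus overlapped between groups while their share did not. FPKM is scaled by library total, and library totals in place of TMM moved the median log2 fold change of all genes to 0.455. On the CPM scale used above, Cxcl12 alone had a mean of 265 CPM in young and 106 CPM in aged hearts.

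Single ligands show the same turnover. Cxcl12 held 28.6% and 32.7% of ligand FPKM in young 3 and 13, 6.75% in young 15 and 2.22%, 2.5% and 0.967% in aged 3, 4 and 7. Ccl2 held 1.6% and 1.91% in young 3 and 13, 31.5% in young 15 and 33.7%, 41.6% and 36.7% in the aged hearts. The FPKM of Ccl2 and Ccl7 together over that of Cxcl12 was 0.0798, 0.091 and 7.38 in young hearts and 25.3, 23.1 and 61.2 in aged hearts, which places young 15 between the groups but nearer to aged 4 than to young 13 on a log scale.

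Receptor RNA showed a parallel pattern. The 21 receptors summed to 73.6, 66.9 and 91.0 FPKM in young hearts and 377, 142 and 183 FPKM in aged hearts. No gene with the symbol Ccr2, a monocyte receptor of Ccl2, was among these 21, so the sums and shares are without it. Atypical receptors, chiefly Ackr3, made up 73.9% and 67.2% of it in young 3 and 13, 17.5% in young 15 and 11.2%, 11.5% and 15.5% in aged 3, 4 and 7. Receptors of inflammatory ligands made up 7.88% and 5.75% in young 3 and 13, 64.1% in young 15 and 72.8%, 67.0% and 67.2% in the aged hearts. Cxcr2 was at 6.36% of receptor FPKM in young 15, below its 27.4%, 10.5% and 23.1% in aged 3, 4 and 7.

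**Figure D4:**
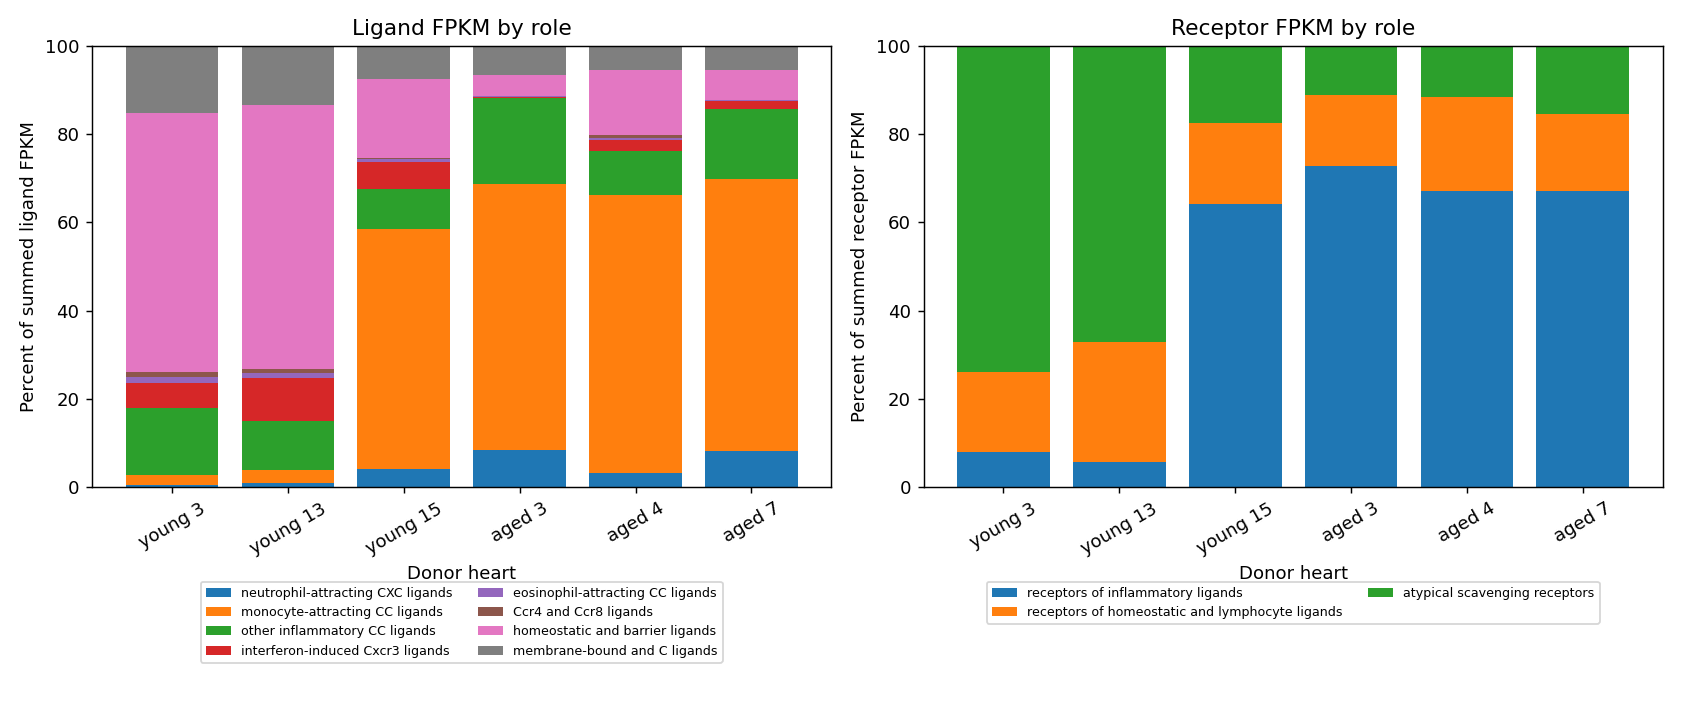
Percent of the summed FPKM of all ligands (left) and of all receptors (right) taken by each role in each donor heart. Homeostatic and barrier ligands take 58.6% and 59.9% and atypical receptors 73.9% and 67.2% in young 3 and 13, whereas in young 15 and the aged hearts monocyte-attracting ligands take 54.4% to 63.0% and receptors of inflammatory ligands 64.1% to 72.8%.

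Markers of leukocytes differed by cell type, read here against 13.2% of all genes higher and 19.0% lower with all hearts. Without young 15 these shares of all genes were 27.1% and 24.0%. The 12 neutrophil genes listed had 6 of 8 tested members past the limits and higher and 0 lower, with summed levels of 16.3, 16.3 and 138 CPM in young 3, 13 and 15 and 1250, 338 and 723 CPM in aged 3, 4 and 7. Without young 15 all 8 were higher and past the limits. Of neutrophil granule genes, Elane, Lcn2 and Mmp8 were higher and past the limits (log2 fold changes 4.29, 2.39 and 3.83), whereas Ltf was at 0 reads and Mpo at 0 to 0.121 CPM. The 9 macrophage and monocyte genes had 3 members higher and 0 lower, with summed levels of 293, 278 and 2430 CPM in young hearts and 7470, 4330 and 3850 CPM in aged hearts, and without young 15 all 9 were higher and past the limits (27.1% of all genes). The 9 T and NK cell genes had 2 higher of 7 tested, Cd2 and Lck, with summed levels of 38.7, 33.8 and 81.8 CPM against 149, 131 and 97.3 CPM. Much of the rise in this sum was Cd8a, at 2.42, 0.89 and 55.8 CPM against 99.0, 88.3 and 63.8 CPM, itself within the limits with all hearts. Without young 15 Cd8a was past them (log2 fold change 5.68) and Lck was not (0.68), so that 2 of these genes were again higher. Also within the limits with all hearts were Cd3e, Cd4, Cd3g and Nkg7 (log2 fold changes 0.53, 0.24, -0.37 and -0.58), and Cd3d and Gzmb were not tested. The 4 dendritic cell genes had 0 higher with all hearts, with summed levels of 42.0, 43.9 and 96.2 CPM against 149, 117 and 103 CPM. Without young 15 they had 2 higher (Flt3 and Itgax) and 1 lower (Zbtb46). Among resident cells, with all hearts, 1 of 5 endothelial genes, 1 of 5 fibroblast genes and 1 of 4 mural cell genes tested were lower and 0 were higher, and 4 of 9 cardiomyocyte genes were lower. Without young 15 the fibroblast genes had 0 lower and 1 higher, Pdgfra (log2 fold change 1.23). Endothelial genes then had 2 lower, mural cell genes 1 lower and cardiomyocyte genes 5 lower, with 0 higher in each. Platelet genes had 1 of 2 tested higher, red blood cell genes 0 of 4, and eosinophil and mast cell genes 1 higher and 1 lower of 3. Without young 15 platelet genes still had 1 higher. Red blood cell genes then had 1 lower, and eosinophil and mast cell genes 0 higher and 1 lower. The part of cell composition in the chemokine values was not tested.

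Dividing each receptor by Ptprc, the phosphatase carried by all leukocytes, in the same heart gives a level relative to leukocyte RNA. Ptprc itself was at 24.3, 23.5 and 141 CPM in young hearts and 409, 150 and 202 CPM in aged hearts. The ratio was above all young hearts in all aged hearts for Cxcr2 and Ccr1 among the 15 tested receptors (1.03% of all genes tested) and below them for Ackr4, Ccr10 and Cxcr3 (54.2% of all genes tested). For Cxcr2 the FPKM ratio was 0.0764, 0.0724 and 0.19 in young 3, 13 and 15 and 1.03, 0.446 and 0.911 in aged 3, 4 and 7. For Ccr1 it was 0.478, 0.185 and 0.422 in young hearts and 0.861, 0.716 and 0.872 in aged hearts. Cx3cr1 overlapped between groups on this scale, at 0.19, 0.34 and 0.594 against 0.321, 0.816 and 0.226. Young 15 was within the range of the other young hearts for Ccr1 but not for Cxcr2.

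Relative to markers of single leukocyte types the picture differed by gene. Cxcr2 over Csf3r, the neutrophil growth factor receptor, was 0.348, 0.184 and 0.15 in young hearts and 0.235, 0.133 and 0.189 in aged hearts (ratios of CPM), so the groups overlapped. Cxcl2 over Csf3r also overlapped, at 0.087, 0.132 and 0.00705 against 0.0441, 0.0255 and 0.0668. Cxcl1 over Csf3r was lower in every aged heart than in any young heart, at 0.304, 0.474 and 0.238 in young hearts and 0.137, 0.106 and 0.168 in aged hearts. In young 3 and 13 these ratios rest on few reads, 23 and 38 of Csf3r, 8 and 7 of Cxcr2, 2 and 5 of Cxcl2, and 7 and 18 of Cxcl1. The share of all genes without overlap in ratios to Csf3r or Csf1r is not given here. Over Csf1r, the macrophage growth factor receptor, Ccl2 was at 0.0423, 0.0516 and 0.362 in young hearts and 0.745, 0.647 and 1.36 in aged hearts, without overlap. Ccr1 over Csf1r was at 0.0672, 0.0263 and 0.0792 against 0.252, 0.1 and 0.259, also without overlap, whereas Ccl6 and Cxcl16 over Csf1r overlapped between groups (0.284, 0.246 and 0.108 against 0.613, 0.182 and 0.862 for Ccl6).

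**Figure D5:**
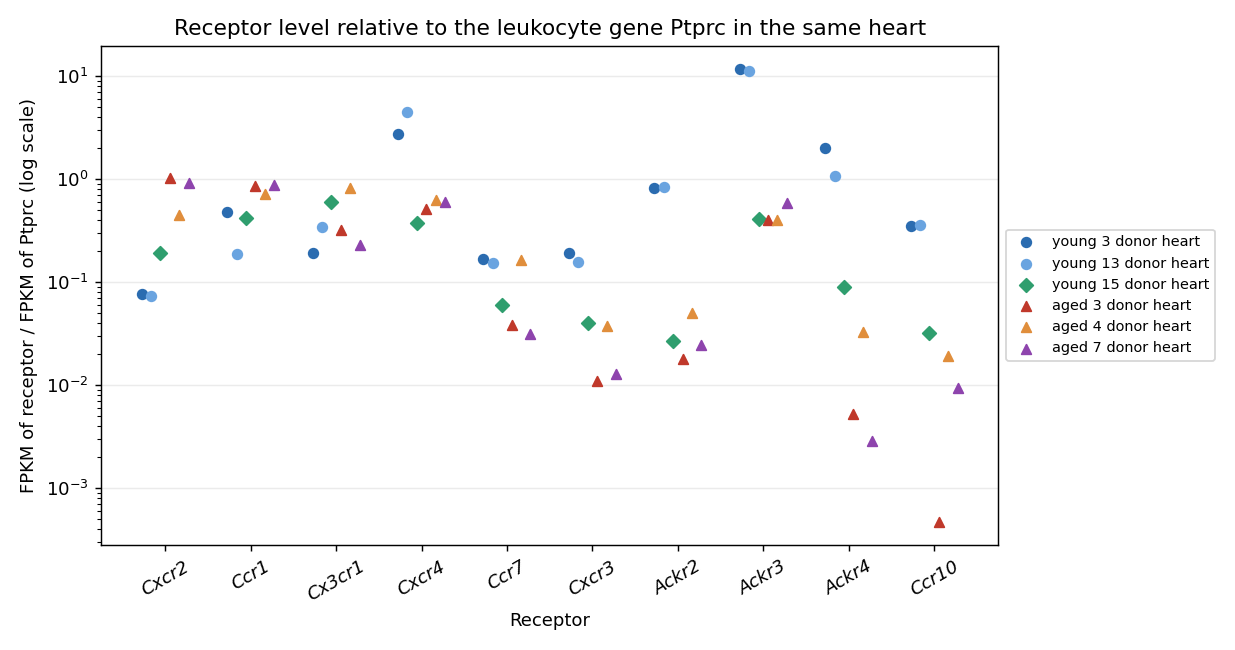
FPKM of 10 receptors divided by the FPKM of Ptprc in the same donor heart, on a log axis, 1 point per heart (circles for young 3 and 13, diamonds for young 15, triangles for aged hearts). For Cxcr2 and Ccr1 all triangles lie above the other symbols, and for Ackr3 and Cxcr4 the circles lie far above all others.

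By position, 36 of the 55 members fall into 10 clusters with neighbours at most 500 kb apart. By cluster, 3 of 4 genes of the neutrophil ligand cluster and 3 of 5 genes of the Ccl3 to Ccl6 cluster were past the limits and higher (13.2% of all genes). In the Cxcl9 cluster 1 of 3 genes was past the limits and lower (19.0% of all genes), and a difference between clusters was not tested. In the largest receptor cluster, which holds Ccr9, Cxcr6, Xcr1, Ccr1, Ccr3 and Ccr1l1, Ccr1 alone was past the limits with all hearts. Of members outside clusters or paired with a neighbour, Cxcl12 is at chr4:149261044-149273891, Cxcl13 is at chr14:15253125-15258207, Cxcl16 is at chr10:57060007-57064600, Xcl1 is at chr13:83199264-83202864, Cxcr2 is at chr9:81427730-81434102 and Ackr4 is at chr8:112644222-112648880 (Rnor_6.0).

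The 14 members that were not tested had at most 40 reads in any heart. Ccr3, the eosinophil receptor, had 0, 0 and 4 reads in young 3, 13 and 15 and 40, 10 and 21 reads in aged 3, 4 and 7, so every aged heart was above every young heart. Ccl1, a Ccr8 ligand, had 10, 5 and 6 reads in young hearts and 0 in each aged heart, at least 10.3-fold lower when the aged hearts together are set at 3 reads. Ccl26 had 2, 2 and 1 reads in young hearts and 0 in the aged hearts, below 3 reads in every heart, so no difference can be read from it. The share of untested genes whose groups do not overlap is not given here, so the separation of Ccr3 and Ccl1 cannot be set against it. Ccl28 and Cxcr1 had 0 reads in every heart, and Ccl11, Ccl17, Ccl22, Ccl25, Cxcl17, Ccr4, Ccr6, Ccr8 and Ccr9 had overlapping groups of 0 to 34 reads.

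Downstream of the receptors, a list of 29 signalling genes (G protein subunits, phosphoinositide 3-kinases, Src family kinases, small GTPases and their activators, arrestins and receptor kinases) had 28 genes tested, of which 14 were past the limits and higher in aged hearts (against 13.2% of all genes), 0 were lower and 14 were within. Their median log2 fold change was 0.88, and 26 were higher without young 15 (27.1% of all genes). The largest differences among those past the limits were in genes of leukocytes. Fgr, a myeloid Src family kinase, was at 5.14, 3.56 and 58.4 CPM in young hearts and 208, 131 and 132 CPM in aged hearts (log2 fold change 2.81, edgeR adjusted p = 0.131, and 5.20 without young 15). Pik3r5, the regulatory subunit of phosphoinositide 3-kinase gamma, had a log2 fold change of 2.48 (edgeR adjusted p = 0.131) and of 4.46 without young 15. Rac2, the GTPase of blood cells, had 2.11 (edgeR adjusted p = 0.0946) and 3.18 without young 15. Fgr and Pik3r5 were past the limits in 1 of the 6 fits without 1 heart, and Rac2 in all 6. The smallest among those past the limits were in widely expressed genes, 0.72 for Grk2, 0.84 for Arrb1 and 0.85 for Plcb3.

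Family and related genes whose symbols the rule does not match gave 1 higher and 1 lower gene among 6 tested (13.2% and 19.0% of all genes). Pf4, the platelet CXC chemokine also made by macrophages, lies within the neutrophil ligand cluster and was at 4.72, 5.85 and 22.1 CPM in young hearts and 110, 46.0 and 74.2 CPM in aged hearts (log2 fold change 2.81, SE 0.69, edgeR adjusted p = 0.0916). Ccrl2, an atypical receptor that presents chemerin, was at 14.8, 14.3 and 5.95 CPM against 3.22, 4.47 and 5.29 CPM (log2 fold change -1.43, SE 0.418, edgeR adjusted p = 0.0933). Cmklr1 (0.33), Rarres2 (-0.70), Mif (0.68) and Cd74 (-0.62) were within the limits with all hearts by their log2 fold changes and tests, and Ppbp was not tested. Without young 15 these genes had 2 higher and 3 lower past the limits (27.1% and 24.0% of all genes). Cmklr1 was then higher (log2 fold change 0.65), and Rarres2 (-0.95) and Cd74 (-0.88) were then lower.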

How the data were processed

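The authors deposited, for each gene and heart, raw read counts and FPKM values (count over gene length and library total). The submitters' processing notes name HISAT2 2.0.5, StringTie 1.3.3b, featureCounts 1.5.0-p3, DESeq2 1.16.1, GATK 3.7 and Rnor_6.0, without roles; the use of strand is not given in the sources used here. Members of the family and the gene lists were chosen with earlier results of these data known, and every member of the family could be named; 1 counted member is not reported here by name.

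Counts were filtered with filterByExpr, scaled by TMM and tested with edgeR 4.0.16 (R 4.3.3) by the quasi-likelihood test without covariates, with Benjamini-Hochberg adjustment over 13784 genes. The SE is the absolute log2 fold change over the square root of F. The limits (1.5, 0.67, p under 0.05) are those of the study. Alternatives were DESeq2 1.42.0, limma-voom 3.58.1, other normalizations and filters, and each heart left out with the gene set kept. The steps were tested on simulated data. All values cover 3 hearts a group, whose p-values measure the spread between these hearts. Promoters came from RefSeq (GRCr8). Ratios and figures used Python 3.11.15.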

Additional observations from a re-analysis of the deposited data

How the results depend on the processing

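No paired analysis was possible because the 2 groups share only 1 replicate number, 3, which counts within each group. The number of members past the limits was 13 higher and 5 lower in aged hearts. It was 20 higher with the DESeq2 Wald test, 21 higher and 8 lower with limma-voom, and 2 lower with library totals in place of TMM, which moved the median log2 fold change of all genes to 0.455. With an adjusted p under 0.05 it was 0 higher and 0 lower in edgeR. Leaving out 1 heart gave 8 to 21 higher (8 without young 3 or aged 3, 21 without young 15) and 3 to 7 lower (3 without young 3 or aged 7). Leaving out both young 15 and aged 3, chosen after seeing the data, gave 24 higher and 8 lower (27.0% and 25.6% of all genes). The signalling list had 14 higher, 25 with limma-voom, 0 with an adjusted p under 0.05, 25 without both hearts, and 4 to 26 with 1 heart left out (4 without young 3, young 13 or aged 3, and 26 without young 15), and 0 lower in each of these settings.

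Of 530 values for 38 single members under these alternatives, 412 kept their direction and side of the limits, 53 dropped within the limits, 50 passed them and 15 changed sign. Those that changed sign belonged to members with small log2 fold changes. Ccl5 was at -0.53 with limma-voom, -0.71 without both hearts and -0.50 to 0.38 with 1 heart left out (-0.13 without young 15). Cx3cl1 was at 0.23 and Cxcr3 at 0.27 with library totals, and Cxcr3 was at 0.01 without both hearts and -0.40 to 0.12 with 1 heart left out (0.06 without young 15). With 1 heart left out Cxcl10 ranged from -0.08 to 1.70, Cxcl11 from -0.51 to 0.68 (-0.26 without young 3, -0.10 without aged 4) and Ccl24 from -0.10 to 0.52. The cause was not tested. A filter on a mean of at least 1 CPM left members below it without a value. Depth limits the 14 untested members and those near 3 reads.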
